A study of Mus musculus with 2 samples.

Results

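Retinoic acid synthesis, breakdown and reception were followed here through 10 listed mouse genes, of which 9 have a row among the 13916 protein-coding genes of the authors' deposited table comparing distal with proximal organoid regions. The members were chosen by gene symbol: Rdh10 and Aldh1a2 (synthesis), Cyp26a1 and Cyp26b1 (breakdown), Crabp1 and Crabp2 (binding proteins), and Rara, Rarb, Rarg and Rxra (receptors). Rarb has no row and counts as not detected. Limb mesenchymal cells from Slc:ICR mouse embryos were grown as organoids in medium with Fgf8b and Wnt3a for 48 h, and 5 organoids from 4 cultures were frozen at day 2. Photo-isolation chemistry primes reverse transcription inside a tissue section with caged primers, and a patterned ultraviolet exposure uncages the product in selected areas only. In 10 µm sections, 5 distal and 5 proximal regions were lit, each with its own barcode, and all 5 of one side went into the same library. Both groups share the genotype, the medium and the day, and the labels name no untreated organoid, no embryo stage and no link from a region to an organoid. The side and the library are the same split, so their effects cannot be told apart.

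Retinoic acid is made from vitamin A: retinol dehydrogenases such as Rdh10 oxidise retinol to retinal, and retinaldehyde dehydrogenases such as Aldh1a2 oxidise retinal to retinoic acid. Cyp26 enzymes degrade it, Crabp proteins carry it in the cytoplasm, and the receptors Rara, Rarb and Rarg bind DNA as partners of an Rxr protein. In the early limb bud, retinoic acid reaches the proximal mesenchyme from the trunk, while Cyp26b1 is known for clearing it from the distal mesenchyme, and Fgf signals of the apical ridge are known to maintain that clearance.

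The receptor pair is known to bind direct repeats of a short half-site, and Cyp26a1 and Rarb are textbook targets with such an element close to their start sites. The promoters below are shown because they belong to these target genes and to Rarg, the only member past the deposited threshold. Each is 300 bases long, from 250 bases before to 50 after a RefSeq start (GRCm38.p6), read 5′ to 3′ on the gene's strand, with the repeat (both half-sites and the bases between them) or a lone half-site in capitals. One more half-site of the Rarb window, gggtca, lies before its repeat and is left in lower case. The half-site searched on both strands was AGGTCA, with AGTTCA as one variant, GGGTCA as another and GGTTCA as the last. The Cyp26a1 window is chr19:37697558-37697857 on the plus strand, the Rarb window is chr14:16575427-16575726 on the minus strand and the Rarg window is chr15:102257473-102257772 on the minus strand.
Cyp26a1 promoter: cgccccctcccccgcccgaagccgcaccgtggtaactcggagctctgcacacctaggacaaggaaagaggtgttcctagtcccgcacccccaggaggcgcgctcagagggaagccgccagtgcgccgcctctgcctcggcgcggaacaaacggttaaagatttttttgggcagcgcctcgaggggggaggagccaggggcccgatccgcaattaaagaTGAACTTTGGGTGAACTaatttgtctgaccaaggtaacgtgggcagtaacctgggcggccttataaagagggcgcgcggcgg
Rarb promoter: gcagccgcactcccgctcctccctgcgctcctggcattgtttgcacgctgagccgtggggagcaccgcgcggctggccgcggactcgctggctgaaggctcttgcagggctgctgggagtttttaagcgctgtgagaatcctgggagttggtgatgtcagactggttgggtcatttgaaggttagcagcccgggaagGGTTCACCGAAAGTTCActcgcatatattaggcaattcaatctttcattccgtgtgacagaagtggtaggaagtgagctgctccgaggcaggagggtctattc
Rarg promoter: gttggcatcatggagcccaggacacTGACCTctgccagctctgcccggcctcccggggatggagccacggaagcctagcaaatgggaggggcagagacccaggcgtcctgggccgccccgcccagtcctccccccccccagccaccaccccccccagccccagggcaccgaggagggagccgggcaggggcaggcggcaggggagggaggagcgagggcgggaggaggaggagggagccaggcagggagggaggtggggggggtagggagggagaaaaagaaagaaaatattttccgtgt

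Among the 8 members with promoters in the RefSeq set, only Cyp26a1 and Rarb held a direct repeat spaced by 5 bases. In Cyp26a1 it was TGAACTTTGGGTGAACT, which on the other strand reads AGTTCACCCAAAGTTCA, with its first base at position -32 from the start. In Rarb it was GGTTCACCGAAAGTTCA at position -53. Of all 32851 RefSeq promoters, 32 (0.0974%) held this repeat, 73 (0.222%) held one spaced by 1 base and 88 (0.268%) one spaced by 2 bases. The second Rarg promoter, chr15:102246451-102246750 on the minus strand, held no half-site, and the one shown holds a lone TGACCT, which reads AGGTCA on the other strand. Half-sites also stood in promoters of members without a call, with 4 in a Rara promoter and 3 in an Rxra promoter. How often lone half-sites stand in all promoters was not counted. A match describes these letters only. Neither gene with the repeat was detected beyond a single count: Cyp26a1 had 1 count in all 10 regions and Rarb has no row. Rarb overlaps Top2b on the opposite strand. Of the last 300 bases of a Rarb transcript, at least 200 match a Top2b transcript, at 95% identity or more. Reads of Rarb may therefore have been shared or set aside. How the authors' counting treated such reads is not given in the sources used here. The repeat spaced by 5 bases stood in promoters of 31 genes, of which 6 have a row in the authors' deposited table, all with means under 1 normalized count and none with an adjusted p under 0.05 (lowest unadjusted p 0.313).

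The deposited table gives 1 mean per gene over the 10 regions. Its lowest means repeat on 10 steps, each the worth of 1 count in 1 region, which returns every region's size factor. From these, the whole counts of each region were solved for all 9 members. For each member, a single set was found, within the range searched, that gives both the deposited mean and the deposited log2 change. Regions are numbered within a side from the highest size factor, and these numbers are not those of the labels. Size factors ran from 0.329 to 0.832 in distal and from 1.50 to 2.42 in proximal, and the proximal factors summed to 3.30 times the distal ones. Scaled to the sum of all deposited means, a distal region held roughly 46991 to 118978 counts and a proximal region 214774 to 345649. A normalized count is a count divided by the size factor of its region. All 9 limb mesenchyme markers had a row, with means from 1.08 to 159, while 4 of 9 surface ectoderm markers did, each with a mean under 1.

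Rarg, higher in distal, was the 1 of 9 members called in the authors' deposited table, that is, given an adjusted p under 0.05. Over all 13916 genes that share was 0.977%, and 0.395% for calls higher in distal. An unadjusted p under 0.05 was reached by 3 members, beside 6.07% of all genes. Rarg and Aldh1a2 were higher in distal (2 members, beside 2.56% of all genes) and Crabp1 higher in proximal (1 member, beside 3.51%). The median log2 change of the 9 members was 0.10, beside 0.07 over all genes. Where the mean reached 1, the median was 0.01 for the 8 members left and -0.03 for all genes, with 4 of those members positive and 4 negative. The members are therefore split: a receptor gene stood higher in distal, a synthesis gene and a binding protein gene had log2 changes of opposite sign that missed the adjusted threshold, and the rest lay within the spread between regions. In these bulk regions, fewer cells of a type and less RNA per cell cannot be told apart.

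**Figure D1:**
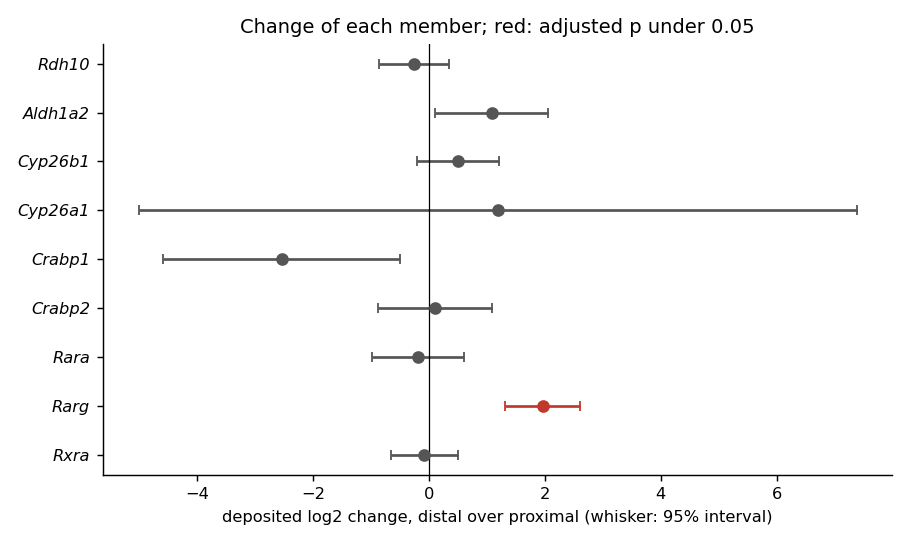
Deposited log2 change of each of the 9 members, distal over proximal (x axis), with whiskers for the 95% interval and red for an adjusted p under 0.05. Rarg stands at 1.96 with its whisker from 1.31 to 2.61, Crabp1 at -2.54, and the whisker of Cyp26a1, a gene with 1 count, runs from -5.01 to 7.38.

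**Figure D2:**
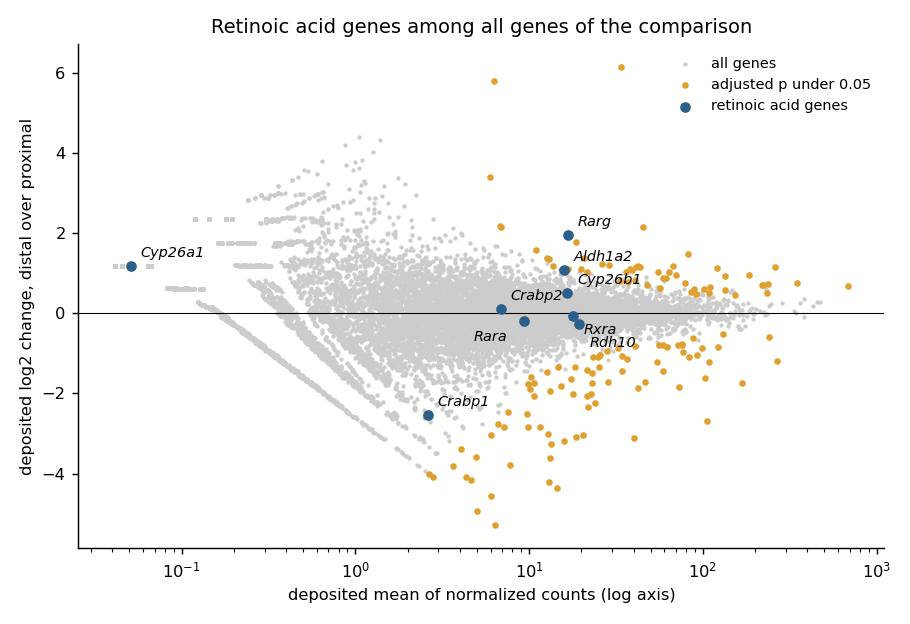
Each point is 1 of the 13916 genes, by deposited mean of normalized counts (x axis, log scale) and deposited log2 change, distal over proximal (y axis). Genes with an adjusted p under 0.05 are orange and the 9 members blue; 5 members have means of 16.0 to 19.3, and of the 9 only Rarg had an adjusted p under 0.05.

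Both synthesis genes were detected in all 10 regions, and neither passed the threshold. Rdh10 (ENSMUSG00000025921, GRCm38 chr1:16105774-16133734, plus strand) had the highest mean of the members in the authors' deposited table, 19.3 normalized counts. Its counts were 23, 8, 11, 5 and 6 in distal regions 1 to 5 and 47, 40, 58, 31 and 29 in proximal regions 1 to 5. As normalized counts these were 27.6, 11.5, 19.7, 9.80 and 18.3 in distal against 19.4, 18.1, 29.7, 19.8 and 19.3 in proximal. The sides overlapped: distal regions 2 and 4 lay below every proximal region, and distal region 1 above all but one. The means were 17.4 ± 7.14 in distal and 21.3 ± 4.74 in proximal (SD, n = 5 each; exact permutation test, two-sided p = 0.341). The authors' deposited table gave a log2 change of -0.26 (SE 0.31, adjusted p 0.991).

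Aldh1a2 (ENSMUSG00000013584, chr9:71215789-71296243, plus strand), the enzyme that makes retinoic acid itself, had higher normalized counts in 4 of 5 distal regions than in 4 of 5 proximal regions. Its counts were 4, 26, 16, 10 and 6 in distal regions 1 to 5 and 12, 25, 40, 6 and 16 in proximal regions 1 to 5. The normalized counts were 4.81, 37.2, 28.6, 19.6 and 18.3 in distal, and 4.96, 11.3, 20.4, 3.83 and 10.7 in proximal. Distal region 1 was the second lowest of all 10, and proximal region 3 lay within the range of the other distal regions. The means were 21.7 ± 12.2 and 10.2 ± 6.60 (SD, n = 5 each), a ratio of 2.12, and the exact permutation test gave p = 0.111. Leaving out each region in turn, the exact p ran from 0.0476 without distal region 1 to 0.222 without distal region 2 or 3, and the ratio ran from 1.74 to 2.82. The authors' deposited table gave a log2 change of 1.08 (SE 0.50, p 0.0316), with an adjusted p of 0.75. A predicted gene on the opposite strand, Gm48124, overlaps Aldh1a2, and whether the authors' counting used strand is not given in the sources used here.

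Breakdown rested on Cyp26b1 alone. Cyp26b1 (ENSMUSG00000063415, chr6:84571414-84593908, minus strand), the retinoic acid hydroxylase that marks the distal limb bud, had normalized counts of 27.6, 18.6, 28.6, 7.84 and 12.2 in distal regions 1 to 5. The proximal regions 1 to 5 had 15.7, 7.69, 21.0, 12.1 and 13.3. Distal regions 1 and 3 were the highest of all 10, while distal region 4 stood next to the lowest. The means of 19.0 ± 9.20 and 14.0 ± 4.88 (SD, n = 5 each; 60 and 135 counts) gave an exact permutation p of 0.317. The log2 change in the authors' deposited table was 0.50 (SE 0.36, adjusted p 0.991), and its 95% interval ran from -0.21 to 1.21.

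Cyp26a1 (ENSMUSG00000024987, chr19:37697798-37701536, plus strand), the family member most directly induced by retinoic acid, had 1 count, in proximal region 3. The authors' deposited table lists it with a mean of 0.0511 and a log2 change of 1.19 (SE 3.16), a sign that points to distal although the count lies in proximal, so it carries no direction. A count of 0 over the distal regions allows up to 3 counts, or a normalized mean of 1.02. Cyp26a1 was not detectable at this depth on either side beyond that count.

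The binding protein genes differed in how they were spread over the regions. Crabp1 (ENSMUSG00000032291, chr9:54764748-54773110, plus strand), a cytoplasmic carrier of retinoic acid found in embryonic mesenchyme and neural crest, had counts of 0, 0, 0, 1 and 1 in distal regions 1 to 5. Its counts in proximal regions 1 to 5 were 11, 14, 4, 10 and 3. Every proximal region held the gene and 3 of 5 distal regions did not, yet the single counts of distal regions 4 and 5 gave normalized values of 1.96 and 3.04. The latter lies within the proximal range of 2.00 to 6.38, so the sides overlapped, while the former lies just below it. The 2 distal and 42 proximal counts correspond to 6.37 times less Crabp1 per unit of depth in distal, with an exact 95% interval of 1.66 to 54.3 that covers counting error only. The exact permutation test of normalized counts gave p = 0.0317. Among 86 other genes, taken at equal steps of gene ID with means of 5 to 20, 9.3% had an exact p under 0.05, but Crabp1, with a mean of 2.63 in the authors' deposited table, is sparser than these. Without any 1 of 6 regions (proximal regions 1, 2 or 4, or distal regions 1, 2 or 3) the exact p was 0.0635. In the authors' deposited table, the log2 change was -2.54 (SE 1.05, p 0.0149) and the adjusted p 0.507.

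Muscle markers were also higher in proximal. All 8 muscle markers had a row and 4 were called higher in proximal, beside 0.582% of all genes. Over the 6 with region counts, summed normalized counts ran from 0 to 1.96 in distal and from 12.1 to 32.6 in proximal (3 and 245 counts). Myf5, Pax3 and Pax7 stood at 0 in distal, against 27, 19 and 2 proximal counts. With so few counts, Pax7 carries no direction. Of the 5 neural crest and Schwann markers, 4 had a row, with summed values of 1.79 to 6.09 in distal and 1.91 to 7.16 in proximal, and Sox10 was at 0 in distal against 9 proximal counts. The part of either cell type in the Crabp1 values was not tested.

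Crabp2 (ENSMUSG00000004885, chr3:87948666-87953376, plus strand), which carries retinoic acid to the receptors in the nucleus, had normalized counts of 12.0, 4.30, 12.5, 0 and 6.09 in distal regions 1 to 5. The proximal regions 1 to 5 had 6.20, 7.24, 5.62, 4.47 and 10.7. The distal regions spread more widely, from no count to the highest value of all 10. The means of 6.98 ± 5.31 and 6.84 ± 2.36 (SD, n = 5 each; 22 and 65 counts) gave an exact permutation p of 0.929. The log2 change in the authors' deposited table was 0.10 with a 95% interval from -0.88 to 1.08, so a difference of that size on either side could not be seen.

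**Figure D3:**
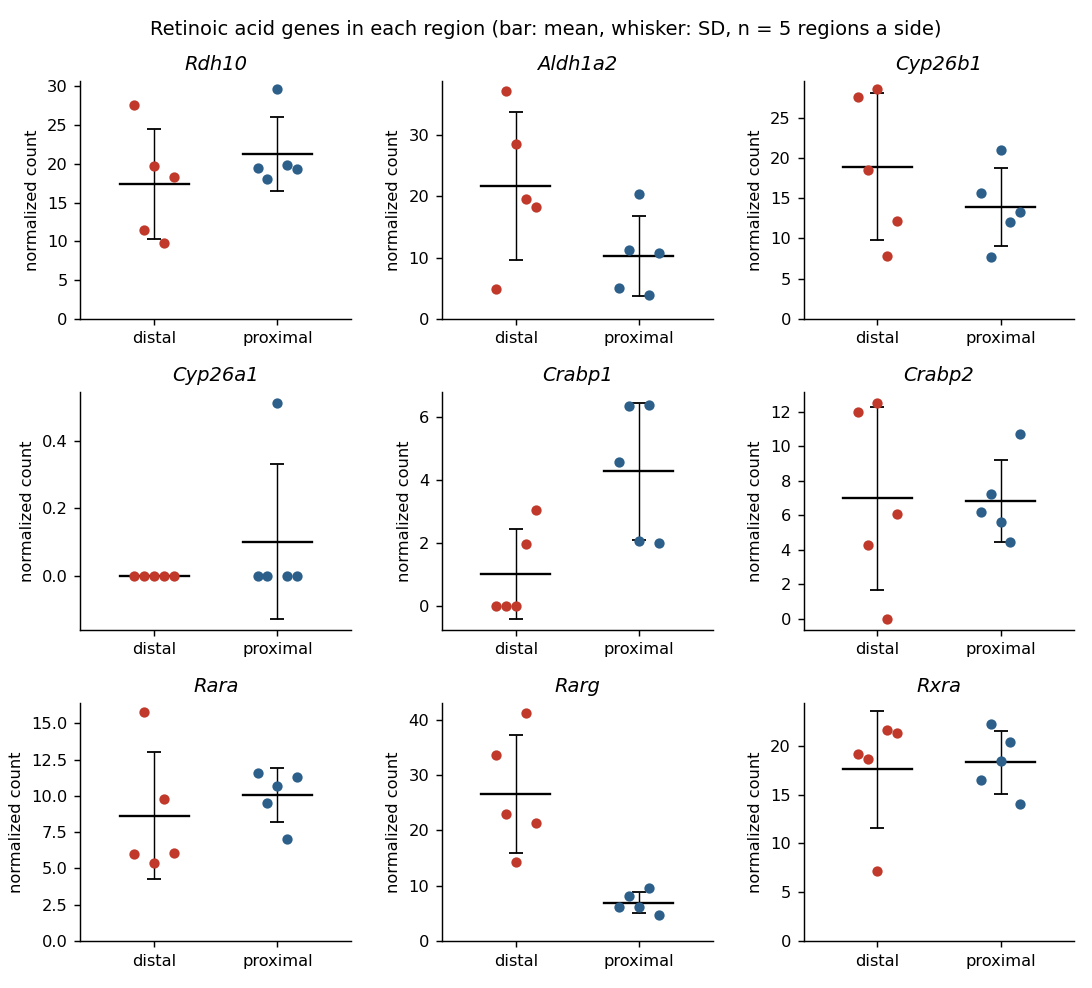
Normalized counts of the 9 members in the 5 distal (red) and 5 proximal (blue) regions, 1 point per region, with the mean as a bar and the SD as a whisker; each panel has its own scale. In the Rarg panel, the distal points from 14.3 to 41.2 all lie above the proximal points from 4.66 to 9.57; in each other panel the sides overlap.

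The receptors gave the one difference that passed the test. Rarg (ENSMUSG00000001288, chr15:102234938-102257517, minus strand), the retinoic acid receptor known for precartilage mesenchyme and cartilage, had counts of 28, 16, 8, 21 and 7 in distal regions 1 to 5. In proximal regions 1 to 5, at 3.30 times the summed depth, it had 15, 18, 12, 15 and 7 counts. The normalized counts were 33.6, 22.9, 14.3, 41.2 and 21.3 in distal against 6.20, 8.14, 6.13, 9.57 and 4.66 in proximal. Every distal region lay above every proximal region. Among the same 86 other genes, 2 (2.33%) showed such a gap between sides, both higher in distal. The means were 26.7 ± 10.7 and 6.94 ± 1.92 (SD, n = 5 each), a ratio of 3.84, and the exact permutation p was 0.00794, the smallest that 5 regions against 5 can give. In the authors' deposited table, Rarg had a log2 change of 1.96 (SE 0.33, p 3.5e-09, adjusted p 1.89e-06), which ranks 21 by p among the 13916 genes. Leaving out any 1 region, the ratio stayed between 3.32 and 4.29 and the log2 change between 1.77 and 2.12.

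Of the 4 cartilage markers, 3 had a row. Sox9, the transcription factor that sets up cartilage, topped the authors' deposited table with a mean of 682 and had a log2 change of 0.69 (SE 0.13, adjusted p 4.7e-05). Col2a1 had 0.57 (adjusted p 0.991) and Acan -1.57 (adjusted p 0.79) in the authors' deposited table. The part of cartilage precursors in the Rarg values was not tested.

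Rara (ENSMUSG00000037992, chr11:98927818-98974942, plus strand), the most broadly expressed retinoic acid receptor, had normalized counts of 6.01, 15.8, 5.37, 9.80 and 6.09 in distal regions 1 to 5. Its values in proximal regions 1 to 5 were 11.6, 9.50, 10.7, 7.02 and 11.3. Distal region 2 was the highest of all 10 and distal regions 1, 3 and 5 were the lowest. The means of 8.60 ± 4.36 and 10.0 ± 1.86 (SD, n = 5 each) gave an exact permutation p of 0.484. With each region left out in turn, the exact p ran from 0.0476 to 0.762. The lowest came from the run without distal region 2, the highest value, with Rara lower in distal. Every other run gave an exact p of at least 0.365. The authors' deposited table gave a log2 change of -0.19 (SE 0.40, adjusted p 0.991). Another gene on the same strand, Gm22061, overlaps Rara.

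Rxra (ENSMUSG00000015846, chr2:27676440-27762957, plus strand), the shared partner of these receptors, had normalized counts of 19.2, 18.6, 7.16, 21.6 and 21.3 in distal regions 1 to 5. Its values in proximal regions 1 to 5 were 16.5, 22.2, 18.4, 20.4 and 14.0. Apart from distal region 3, the 10 regions lay within a narrow band. The means were 17.6 ± 5.96 and 18.3 ± 3.21 (SD, n = 5 each; exact permutation p = 0.857). The log2 change in the authors' deposited table was -0.08, with a 95% interval from -0.66 to 0.50. For Rarb (chr14:16430839-16819156, minus strand), itself a target of retinoic acid, there is no level to give.

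Because a size factor divides both genes of a region alike, the share of one gene in the counts of 2 does not depend on it. Such shares were formed for 6 pairs of members after the region values were seen, so they are given without a test, and they do not compare the levels of the 2 genes, since counts were not divided by length. Rarg made up 84.8, 59.3, 72.7, 80.8 and 77.8% of the Rarg and Rara counts in distal regions 1 to 5. In proximal regions 1 to 5 it made up 34.9, 46.2, 36.4, 57.7 and 29.2%. All distal shares exceeded all proximal ones, though by little: 59.3% was the lowest distal share and 57.7% the highest proximal one. Against Rxra the gap was wider, with Rarg at 50.0 to 66.7% of the pair in distal and 25.0 to 31.9% in proximal. Rara against Rxra gave 33.2% ± 10.8 in distal and 35.7% ± 7.87 in proximal (SD, n = 5 each). Both receptor pairs that separated the sides hold Rarg, whose own counts already did so. These shares reuse those counts and are no independent observation.

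Shares of the other pairs overlapped between the sides. Aldh1a2 made up 53.4% ± 23.7 of the Aldh1a2 and Rdh10 counts in distal and 30.3% ± 11.2 in proximal (SD, n = 5 each). Distal region 1, at 14.8%, was the lowest of all 10, and the other 4 distal regions, from 50.0 to 76.5%, lay above the highest proximal share of 40.8%. Of the Aldh1a2 and Cyp26b1 counts, Aldh1a2 made up 52.6% ± 22.6 in distal and 40.3% ± 15.8 in proximal. Distal region 1 was again the lowest there, at 14.8%. Crabp1 made up from 0 to 100% of the few Crabp1 and Crabp2 counts in distal regions and 15.8 to 58.8% in proximal regions.

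**Figure D4:**
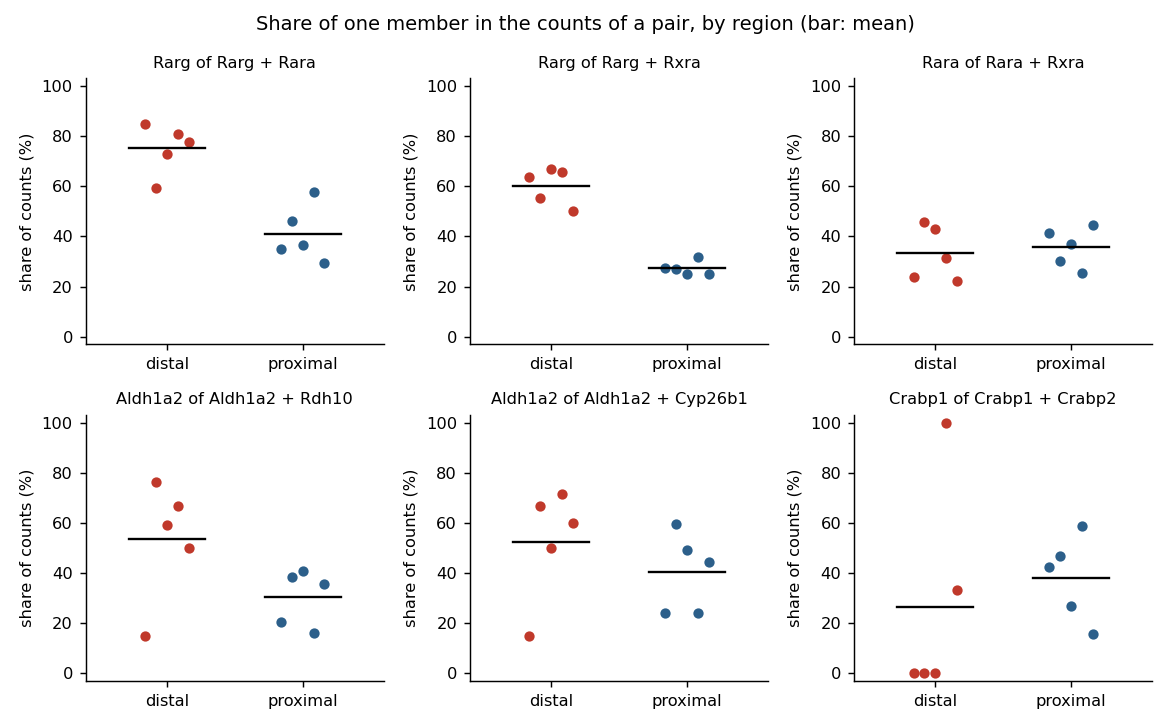
Share of one member in the summed counts of 2 members (y axis, percent) in each of the 5 distal (red) and 5 proximal (blue) regions, with the mean as a bar. Both pairs of Rarg with another receptor separate the sides (59.3 to 84.8% against 29.2 to 57.7% for Rara), and in both Aldh1a2 pairs distal region 1 stands lowest at 14.8%.

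Likeness between genes was described over the 10 regions for Rdh10, the member with the most counts. Of the 47 recovered genes with at least 147 counts, Gdf10, Cyp26b1 and Akap9 came closest, with Pearson's r of 0.57, 0.55 and 0.53. These points share libraries and size factors, and in counts this sparse such weak correlations are no finding.

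The wider pathway was read from 6 lists with 119 genes, of which 86 have a row. Of these, 4 (4.65%) were called at 0.05 in the authors' deposited table, 1 higher in distal and 3 higher in proximal, beside 0.395% and 0.582% of all genes. All 4 are in the list of genes known as retinoic acid responsive. No gene of the lists for uptake and storage (10 with a row), oxidation and reduction (15), breakdown and delivery (2), other receptors and partners (12) or coregulators (25) passed it. At an unadjusted p under 0.05 those 5 lists held 2 genes, Por and Ncoa1, both higher in proximal, a share below the 6.07% of all genes.

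Of the 22 responsive genes with a row, 14 had a mean of at least 1, and 7 of these were positive and 7 negative, with a median log2 change of 0.00. Over all 22 the median was 0.06, but the signs of genes with only a few counts, like that of Cyp26a1, carry no direction. Tbx5, the forelimb transcription factor, fell towards distal: its normalized counts ran from 6.09 to 15.7 in distal and from 20.6 to 39.4 in proximal, without overlap. Its means were 11.6 ± 3.47 and 31.4 ± 7.06 (SD, n = 5 each), and its log2 change in the authors' deposited table was -1.41 (SE 0.32, adjusted p 0.00199). A gap between sides was shown by 2 (2.33%) of the 86 other genes, with means of 5 to 20, both higher in distal. Pbx3, a partner of Hox and Meis proteins, had -2.08 (SE 0.47, adjusted p 0.00212) in the authors' deposited table. Pdgfra, a growth factor receptor of mesenchyme, had -0.86 (SE 0.15, adjusted p 3.94e-06) there. Sox9, described above, was the one called gene higher in distal. Tbx5 and Pdgfra also stand in the limb mesenchyme marker list and Sox9 among the cartilage markers. So 3 of the 4 called genes also mark other groups here. The limb mesenchyme list had calls in both directions. Of its 9 genes, 2 were called higher in proximal (beside 0.582% of all genes) and 1 higher in distal (beside 0.395%). The latter was Msx1, with a log2 change of 1.12 (adjusted p 2.09e-08) in the authors' deposited table. In the authors' deposited table Dkk1, an inhibitor of Wnt signals, had a log2 change of -1.83 (adjusted p 0.219). Meis1 and Meis2, the classical proximal genes downstream of retinoic acid, were named after their values were seen: they had 1 and 2 counts over all regions, all in proximal, too few for a comparison.

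The handling genes were mostly thin. Por, the reductase that supplies electrons to Cyp26 enzymes, had 2 distal and 33 proximal counts, or 5.01 times less per unit of depth in distal with an exact 95% counting interval of 1.28 to 43.1. Its distal values of 0 to 1.79 lay below its proximal values of 2.04 to 4.55, but the authors' deposited table gave it an adjusted p of 0.794. Among the 86 other genes, with means of 5 to 20, 2 (2.33%) showed such a gap between sides, both higher in distal. Por, with a mean of 1.97, is sparser than these. Ncoa1, a coactivator of nuclear receptors, had 10 distal and 81 proximal counts and a log2 change of -1.30 (adjusted p 0.665) in the authors' deposited table. Dhrs3, which reduces retinal back to retinol and is known as a retinoic acid target, had normalized counts of 12.5 to 27.6 in distal and 10.4 to 17.2 in proximal, with a log2 change of 0.47 (SE 0.32, adjusted p 0.991) in the authors' deposited table. Fabp5, a carrier that can deliver retinoic acid to other receptors, had 17 distal and 27 proximal counts and a log2 change of 1.12 (SE 0.73, adjusted p 0.991) there.

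Other genes of high mean in these lists had no call. In the authors' deposited table the log2 change was -0.23 for Lrp1, a lipoprotein receptor. The changes were 0.21 for Adh5, an alcohol dehydrogenase, -0.09 for Nr2f2, an orphan nuclear receptor, and -0.42 for Thra, a thyroid hormone receptor, in the authors' deposited table. Crebbp, an acetyltransferase coactivator, had -0.08 and Tbl1x, a corepressor subunit, 0.05 in the authors' deposited table. Each had an adjusted p of 0.991. Where the mean reached 1, the median over all genes was -0.03. List medians were -0.04 for uptake and storage, 0.17 for oxidation and reduction, -0.35 for other receptors and -0.10 for coregulators. Breakdown and delivery had -0.53, the midpoint of only 2 genes of opposite sign, Fabp5 at 1.12 and Por at -2.19. With sparser genes included, the median for uptake and storage was 0.22.

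**Figure D5:**
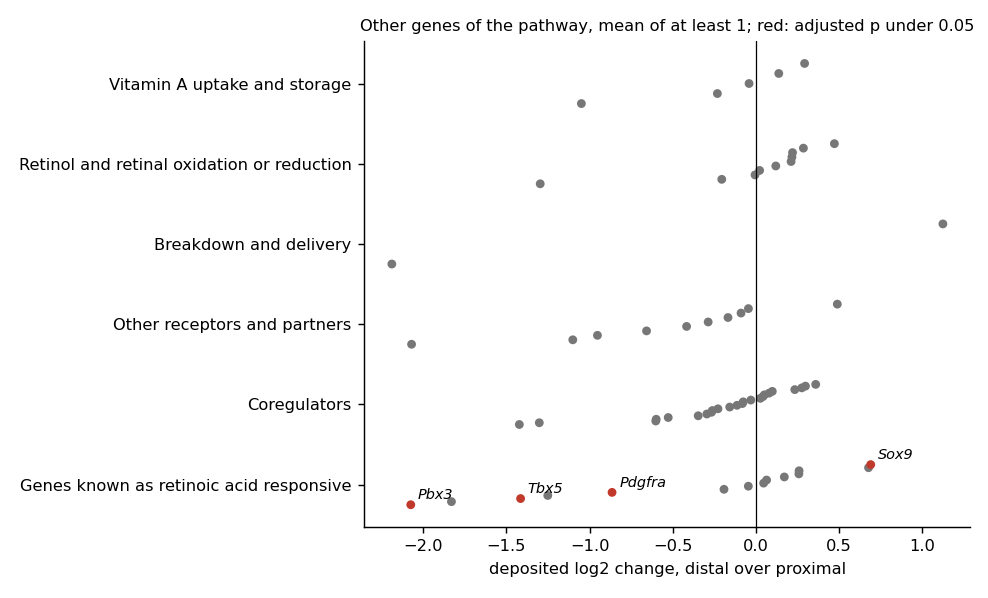
Deposited log2 change, distal over proximal (x axis), of the other pathway genes with a mean of at least 1 normalized count, by list (rows), with red for an adjusted p under 0.05. The 4 red points are Sox9 at 0.69, Pdgfra at -0.86, Tbx5 at -1.41 and Pbx3 at -2.08, all in the responsive list.

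The regions of a side share a library and the organoids behind them are not named, so the permutation p-values over regions cover only the spread between regions. The deposited p-values and adjusted p-values rest on the same 10 regions, so they cover only that spread as well. With 22 to 80 distal counts behind each member other than Crabp1 and Cyp26a1, differences below about the width of the printed intervals could not be resolved.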

How the data were processed

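The members and the gene lists were chosen with earlier results of these data known. Per the labels, the 5 barcoded regions of each side were pooled into 1 library; the genome builds mm10 and GRCm38 are named in the submitters' processing notes, and the aligner, the counter and the annotation are not given in the sources used here. The authors deposited 1 row per protein-coding gene: a signal in mean normalized counts over all regions, a log2 change with its standard error, their quotient as a score, and a p-value with its adjusted p. Per the file headers, these are the columns of a DESeq2 results table. All values per region were computed here.

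The 10 size factors were read from the lowest means, where at least 20 genes shared a step, and each region's side from the sign of the authors' contrast. Whole counts were then searched for that gave the deposited mean to its printed digits and, in a refitted negative binomial model with fitted means of at least 0.5, the deposited log2 change to within 2e-09. The dispersion of that model was set so that it returned the deposited standard error. Above a mean of 1.2, only counts within a set distance of the fitted means were searched. Members matched within 5.9e-10, and the next-best set of counts in the search missed by 2.2e-08. Of 102 listed genes with a mean up to 22, 90 gave 1 set of counts, as did 86 of 100 genes taken at equal steps of gene ID with a mean of 5 to 20, which serve as the comparison for region values. The counts per region rest on this match to the deposited mean and log2 change. For the members no known counts were at hand, so the accuracy of their recovered counts was not tested. With 5 regions against 5, a two-sided exact permutation test of normalized counts was run for 9 members, with raw p-values given.

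All listed members are named, with other pathway genes that had an adjusted or unadjusted p under 0.05 and the 2 of highest mean in each list, of which some are not reported here. Overlapping genes came from GENCODE mouse release M21, and no member with a row had a near-identical copy, while Rarb shares sequence with Top2b (BLAST 2.17.0, last 300 bases of each coding transcript, at least 200 bases at 95% identity). Promoters came from RefSeq, which has no entry here for Rdh10 and Crabp2. Alternatives were other thresholds and adjustments, centring on a median, medians or log2(normalized count + 1) in place of means, leaving out each region and, added after seeing the data, other size factors and refitted log2 changes without each region, and list medians without genes whose mean was under 1. Analyses used Python 3.11.15, numpy 2.4.6, scipy 1.17.1, pandas 2.3.3 and numba 0.67.0.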

Additional observations from a re-analysis of the deposited data

Results flagged for a closer look

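For Rdh10 and Rxra, 1 value each stood apart from the other regions of their side by Dixon's ratio of the gap to the range, with a critical value of 0.71 for 5 regions. Rdh10 reached 29.7 normalized counts in proximal region 3, where the next highest proximal region had 19.8 (ratio 0.854). Rxra had 7.16 normalized counts in distal region 3, where the next lowest distal region had 18.6 (ratio 0.796). In all, 15 sets of 5 regions were tested, and chance flags about 1 in 20. Distal region 3 held 4 Rxra counts in all, so counting error is wide there.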

How the results depend on the processing

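The number of called members stayed at 1 and that of other pathway genes at 4 under thresholds of 0.01 and 0.1, adjustment over the deposited genes or those with a mean of at least 10, and both centrings. The members' median log2 change ran from 0.01 to 0.50 across its alternatives. The 0.01 came from members with a mean of at least 1, and the 0.50 from the 5 members with a mean of at least 10. Over all genes with a mean above the median, a lower cut, the median was -0.02. Leaving out each region, Rarg kept a log2 change of 1.77 to 2.12. Its exact p was 0.0159 in every run, the smallest such a run can give. That value is fixed once the sides do not overlap, so it is no further support. Members with an exact p under 0.05 numbered 1 to 2 of 9 instead of 2 of 9, beside 9.3% of the 86 other genes with all regions. Beside Rarg, the second was Crabp1 with all regions, but Aldh1a2 without distal region 1 and Rara without distal region 2. Directions turned in some of these runs for Crabp2 (log2 change -0.246 to 0.4; exact p 0.429 to 1) and Rxra (-0.16 to 0.118; exact p 0.317 to 0.984). With medians in place of means, Crabp2 (p = 1) and Rxra (p = 0.714) turned, and with log2(normalized count + 1) Crabp2 turned (p = 0.738); neither member had an exact p under 0.05 in any of these runs. Size factors from 86 other genes, added after seeing the data, changed no call or direction, and gave Rarg a log2 change of 2.01. The cause of these turns was not tested. No paired analysis was possible because the recovered regions carry no replicate numbers. Depth limits Cyp26a1 and Crabp1 most, with 0 and 2 distal counts.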
